A study of Mus musculus with 51 samples.

Results

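The passage from the 1-cell to the 2-cell stage was examined in mouse embryos cloned from Sertoli cell nuclei, using 10 of the 51 arrays of a preimplantation time course. The arrays were chosen by embryo type and stage as labelled: 5 cloned embryos at the 2-cell stage, collected 32 h after activation, and 5 cloned embryos at the 1-cell stage, collected 16 h after activation. The clones combined a B6CBF1 donor nucleus with a B6D2F1 recipient oocyte. Sertoli cells are the somatic nurse cells of the testis tubule. Embryos made by in vitro fertilisation (IVF) of B6D2F1 oocytes with B6D2F1 sperm, with 3 at the 2-cell stage 32 h after insemination and 3 at the 1-cell stage 16 h after insemination, served for comparison. Cloning and donor strain therefore cannot be told apart. Donor nuclei from testis cells are male, while IVF embryos can be of either sex, so embryo sex is not matched either. Clones at the 4-cell stage (n = 5, 48 h) and unfertilised metaphase II (MII) oocytes of B6D2F1 mice (n = 3) are used as side values. All embryos were cultured in KSOM, an embryo medium, at low oxygen. All 18194 genes with a probe set of 1 gene symbol were examined, and each was read through 1 probe set, the most variable of its probe sets across the 51 arrays. Genes whose only probe sets carry several symbols were left out.

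The mouse egg is loaded with RNA made during oocyte growth and transcribes almost nothing at ovulation. Much of that maternal RNA is deadenylated and degraded between the resumption of meiosis and the 2-cell stage, while the embryo's own genome starts with a weak wave of transcription in the 1-cell embryo and a strong wave in the 2-cell embryo. In a clone, the nucleus that has to start this programme comes from a differentiated cell and is reset by the cytoplasm of the oocyte.

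Each array carried the RNA of 1 whole embryo, and the deposited log2 values were centred for every probe set on its own median over the series. A value is therefore a distance from that probe set's median and not a level, so only differences between embryos are given, and values of different genes cannot be ranked by abundance. Arrays were normalised against each other, so a fall in RNA per embryo and a fall in a gene's share of that RNA cannot be told apart. Pairwise correlations across genes were 0.77 to 0.836 among the 2-cell clones and 0.946 to 0.963 among the 1-cell clones. The spiked hybridisation controls averaged 0.807 ± 0.251 in the 2-cell clones and -0.339 ± 0.705 in the 1-cell clones (log2, SD, n = 5 each), a difference of 1.15 (exact permutation test, two-sided, p = 0.00794, adjusted over 2 measures 0.0159). These controls separated 1-cell clones 1 to 3, at -1.02 to -0.708, from 1-cell clones 4 and 5, at 0.346 and 0.496. In the IVF embryos they went the other way, at -0.734 to -0.227 at the 2-cell stage and 0.530 to 0.790 at the 1-cell stage. The difference between the clone and IVF transitions therefore carries both shifts. The fits below were repeated without 1-cell clones 1 to 3 or 4 and 5, and with the controls as a covariate. The lowest 2-cell clone, at 0.573, lay above the highest 1-cell clone, at 0.496. Leaving out 1-cell clones therefore cannot separate this shift from stage, and its part in the results is not settled. The other measure, the 3-prime minus 5-prime signal of the Actb and Gapdh controls, averaged -0.696 ± 0.485 in the 2-cell clones and -0.254 ± 0.618 in the 1-cell clones. The difference was -0.441 (exact permutation test, p = 0.23, adjusted 0.23). This measure too separated 1-cell clones 1 to 3, at -0.121 to 0.467, from 1-cell clones 4 and 5, at -1.04 and -0.715. The stage labels fitted the markers: the 10 measured oocyte markers averaged 1.63 to 3.47 in the 2-cell clones against 5.76 to 6.10 in the 1-cell clones, and the 8 measured 2-cell markers averaged 3.16 to 4.25 in the 2-cell clones against -2.52 to -2.23 in the 1-cell clones.

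Between the 2 stages 7505 of the 18194 genes passed the test (limma, adjusted p under 0.05), which is 41.2% of all genes tested. Of these, 3036 were higher in the 2-cell clones (16.7%) and 4469 were lower (24.6%). The replicates are single embryos, and n is 5 for each stage of the clones unless stated. The fit estimated the spread between embryos from the clone arrays of all stages up to the blastocyst, and moderated it over genes. The p-values and standard errors therefore do not rest on the printed 1-cell and 2-cell values alone. That spread also includes the variation from RNA amplification. The median difference over all genes was -0.01, the median rise 2.67 and the median fall -2.29 on the log2 scale. The falls were the more frequent but the rises reached further. At least 2-fold rises numbered 2773 and at least 2-fold falls 3972, whereas 285 genes rose at least 64-fold and 67 fell that far. The 5 values of the 2-cell clones lay wholly above the 5 of the 1-cell clones for 2388 of the genes that rose and wholly below them for 3383 of those that fell, against 13.8% and 19.9% of all genes with such separation. With the arrays quantile-normalised a second time, 4734 genes passed, 2099 higher and 2635 lower, of which 4499 were among the 7505. This step acted on the centred values, whose spread differed by stage. The SD across an array was 1.83 to 1.90 in the 1-cell clones and 1.10 to 1.20 in the 2-cell clones. Forcing 1 distribution on them can also reduce real differences between stages. A call lost or turned under it, here and below, therefore does not decide whether the change was real. Leaving out 1-cell clones 1 to 3 together, an alternative added after the data were seen, left 6453 genes, 2565 higher and 3888 lower.

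The 12 largest rises among genes with separated values span 9.92 to 12.12 on the log2 scale and hold metabolic enzymes, transporters and genes known from early embryos. Pdxk, which encodes the kinase that turns vitamin B6 into its active cofactor, had 1.06, 1.11, 1.04, 0.56 and 0.90 in the 2-cell clones, against -11.30, -11.34, -11.33, -10.62 and -11.35 in the 1-cell clones. All 2-cell clones lay above all 1-cell clones, and the log2 difference was 12.12 ± 0.35 (± standard error from limma, as in all later differences; chromosome 10, 78436747 to 78464948; adjusted p 3.03e-20). Zfp622, a zinc finger protein that acts in the maturation of the large ribosomal subunit, had 1.70, 1.66, 1.32, 1.64 and 1.74 in the 2-cell clones, against -9.59, -10.11, -10.69, -10.35 and -10.69 in the 1-cell clones, again without overlap and with a difference of 11.90 ± 0.17 (adjusted p 1.71e-26). Selenos, a selenoprotein of the endoplasmic reticulum that helps to remove misfolded proteins, had 1.14, 1.17, 1.11, 1.07 and 1.36 in the 2-cell clones, against -10.04, -10.04, -10.03, -10.04 and -10.05 in the 1-cell clones. Its 1-cell values lay within a narrow band, and the difference was 11.21 ± 0.20 (chromosome 7, 66079649 to 66089405; adjusted p 1.4e-24).

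Pramel7 and Pramel6 belong to a family of leucine-rich repeat proteins made in preimplantation embryos and in naive pluripotent cells. Pramel7 had -0.48, 0.11, -0.14, -0.06 and -0.92 in the 2-cell clones, against -11.33, -11.57, -11.57, -11.58 and -11.45 in the 1-cell clones, and Pramel6 had -0.94, -0.59, -1.12, -0.89 and -1.15 in the 2-cell clones, against -10.22, -11.19, -10.86, -11.17 and -10.86 in the 1-cell clones. Neither overlapped between stages, and the differences were 11.20 ± 0.18 for Pramel7 (chromosome 2, 87489088 to 87492418) and 9.92 ± 0.21 for Pramel6 (adjusted p 1.03e-25 and 3.33e-23). Probe sets of large gene families, among them Pramel, Trim43, Usp17l, Tdpoz, Nlrp, Oog and the ribosomal proteins with their many pseudogene copies, may also hybridise with RNA of related copies, so their values are those of the probe set. Crxos, a homeobox gene of early embryos, differed by 10.30 ± 0.11. Trim43a, a member of a tripartite-motif family found in preimplantation embryos, differed by 10.01 ± 0.25.

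Tfrc, the transferrin receptor through which cells take up iron, had 2.16, 2.60, 2.62, 2.34 and 2.85 in the 2-cell clones, against -8.23, -7.68, -9.02, -9.03 and -8.38 in the 1-cell clones, a difference of 10.98 ± 0.30 with no overlap (chromosome 16, 32608896 to 32632794; adjusted p 1e-20). Timd2, a receptor that binds ferritin in the mouse, differed by 10.33 ± 0.16. The transporters Slc34a2, which carries phosphate with sodium, and Kcnk6, a potassium channel, differed by 10.17 ± 0.20 and 10.52 ± 0.29. Ctsc, a lysosomal protease, differed by 11.04 ± 0.21 through its chosen probe set but by -0.00 through its second one, so its rise rests on 1 probe set. All 12 passed with an adjusted p of 3.03e-20 or lower.

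**Figure D1:**
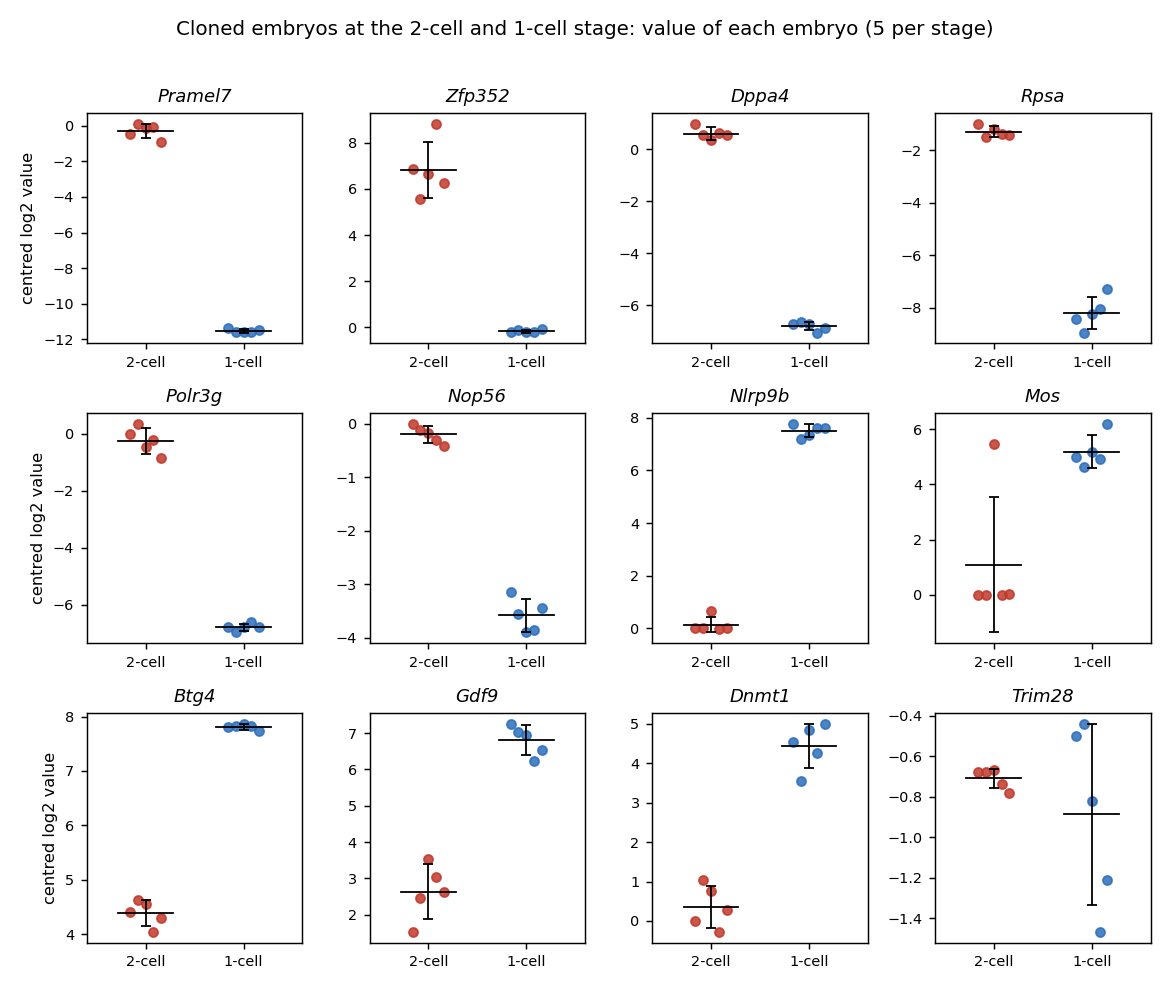
Log2 values of 12 genes in single cloned embryos, with 2-cell clones left of 1-cell clones in each panel; points are embryos (n = 5 each), the line is the mean and the bar the SD. Rises such as Pramel7 and Rpsa and falls such as Nlrp9b and Gdf9 separate the stages, Mos has 1 2-cell clone at 5.47 within the 1-cell range, and Trim28 overlaps.

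Promoters of genes that rose are shown because 1 short word, CCGGAAG, was found in them more often than in other promoters. Other words, such as those of the E-box, Nrf1 and Yy1, were also more frequent there, as given below. The 300 bases from 250 before to 50 after a gene start (RefSeq, GRCm38.p6) could be read for 14369 of the 18194 genes, and 8 words were searched on both strands. CCGGAAG, the core bound by ETS-family factors, was found in 23.8% of the 2461 promoters of genes that rose, 15.8% of the 3593 of genes that fell and 13.8% of all 14369. The windows are those of the RefSeq sequence table. Of the 14369 windows 8114 (56.5%) are placed at the start of the gene record and the other 6255 at another start. In the 8114 alone, an alternative added after the data were seen, the word was found in 24.1% of promoters of genes that rose, 14.6% of those that fell and 12.8% of all. In the 5 promoters printed here, each at the start of its gene record, of genes described in this report that rose, the word stands in capitals, and CTTCCGG is the same word on the opposite strand.
Selenos: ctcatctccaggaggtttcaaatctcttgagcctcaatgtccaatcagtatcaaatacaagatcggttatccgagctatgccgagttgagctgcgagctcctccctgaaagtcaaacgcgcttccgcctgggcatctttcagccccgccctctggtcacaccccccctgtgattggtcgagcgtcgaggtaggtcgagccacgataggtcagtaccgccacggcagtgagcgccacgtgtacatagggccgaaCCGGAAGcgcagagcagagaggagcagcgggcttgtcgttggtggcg
Prps1: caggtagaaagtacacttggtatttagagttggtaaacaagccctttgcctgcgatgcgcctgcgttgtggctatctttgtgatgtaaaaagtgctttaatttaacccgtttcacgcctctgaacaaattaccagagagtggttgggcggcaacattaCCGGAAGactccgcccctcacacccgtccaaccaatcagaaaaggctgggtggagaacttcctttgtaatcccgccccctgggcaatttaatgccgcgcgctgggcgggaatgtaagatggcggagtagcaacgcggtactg
Rpsa: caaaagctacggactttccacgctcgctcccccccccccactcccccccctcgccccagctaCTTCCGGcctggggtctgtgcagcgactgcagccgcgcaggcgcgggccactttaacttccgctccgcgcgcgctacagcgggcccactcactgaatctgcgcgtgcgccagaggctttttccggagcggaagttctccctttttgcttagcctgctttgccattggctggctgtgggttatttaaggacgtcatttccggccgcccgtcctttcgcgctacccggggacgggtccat
Polr3g: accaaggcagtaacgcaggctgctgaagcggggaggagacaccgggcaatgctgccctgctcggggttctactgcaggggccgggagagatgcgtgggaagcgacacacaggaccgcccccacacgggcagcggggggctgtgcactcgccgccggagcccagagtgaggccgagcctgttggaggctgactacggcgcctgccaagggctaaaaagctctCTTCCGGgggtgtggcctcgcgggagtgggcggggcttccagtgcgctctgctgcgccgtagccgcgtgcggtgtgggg
Tsr1: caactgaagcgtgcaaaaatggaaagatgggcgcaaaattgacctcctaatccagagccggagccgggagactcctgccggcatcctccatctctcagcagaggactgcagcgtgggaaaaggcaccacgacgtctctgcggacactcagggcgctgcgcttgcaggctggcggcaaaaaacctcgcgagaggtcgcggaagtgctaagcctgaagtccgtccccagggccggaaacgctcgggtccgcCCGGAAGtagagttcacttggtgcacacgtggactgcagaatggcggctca

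They lie at chr7:66079399-66079698 (plus strand) for Selenos, chrX:140456353-140456652 (plus strand) for Prps1, chr9:120127516-120127815 (plus strand) for Rpsa, chr13:81710964-81711263 (minus strand) for Polr3g and chr11:74897830-74898129 (plus strand) for Tsr1. Of the 85 rises named by rule that had a promoter, 17 held the word, with genes on the chromosome of Cdc25c (given below) left out of both counts. Its share was 7.3% of the 55 promoters of genes that fell by more than 6 on the log2 scale, 17.6% of those that fell by less than 2, 26.5% of the 945 that rose by 2 to 4, and 19.4% of the 232 that rose by more than 6. The share thus differed between rises and falls, but it was not highest among the largest rises. CCAAT, bound by NFY, showed no such split, with 38.8% of promoters of genes that rose, 37.9% of those that fell and 38.2% of all. GGGCGG, bound by Sp and Klf factors, was found in 63.6% of promoters of genes that rose, 62.6% of those that fell and 54.1% of all, and the E-box CACGTG in 12.1%, 9.3% and 9.0%. The homeobox word GGATTA was found in 6.5%, 5.2% and 6.0%, and TATAAA in 6.6%, 7.3% and 9.9%. The Nrf1 word was found in 2.4%, 1.9% and 1.6%, and the Yy1 word in 3.0%, 2.0% and 1.5%. Promoters of both changed sets were richer in CpG than the rest, with a median of 21 CpG for genes that rose and 20 for genes that fell, against 12 for genes not called. Gene length set only the falls apart. The median was 32.5 kb for genes that fell, 18.2 kb for genes that rose and 16.9 kb for genes not called. It was 20.3 kb for all genes with a position. These shares and lengths describe the sets and carry no test, and a match is not evidence that a factor binds there.

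**Figure D2:**
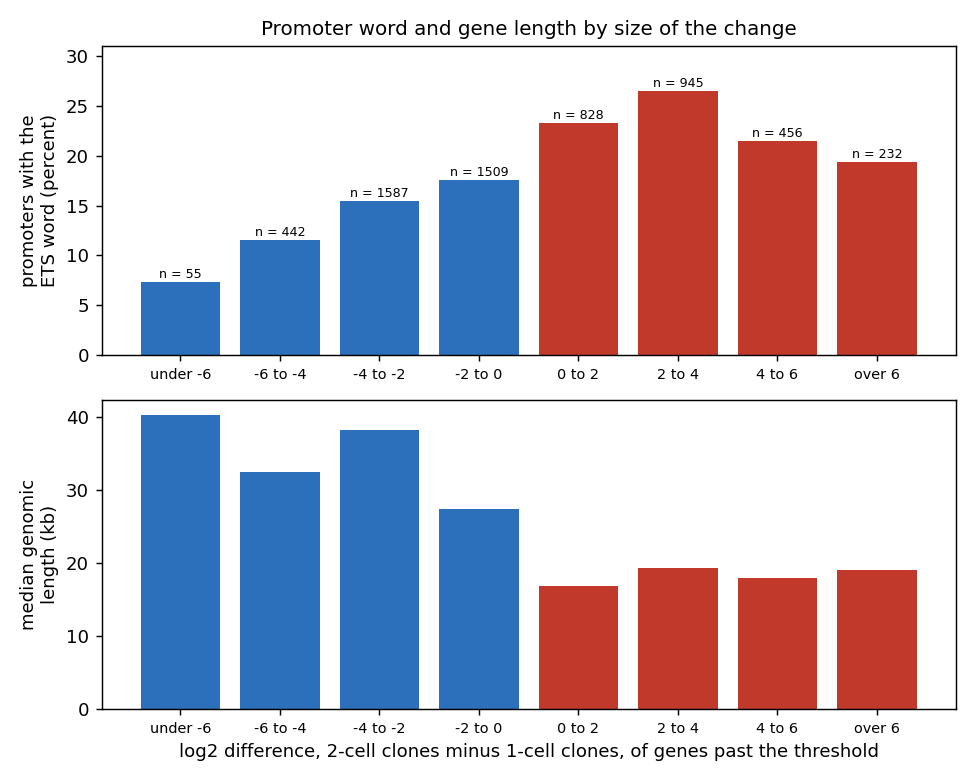
Percent of promoters with CCGGAAG and median gene length in kb, by size of the log2 difference between 2-cell and 1-cell clones, among genes that passed the test. The word is found in 7.3% of promoters at the far left and 26.5% at rises of 2 to 4, and genes that fell are the longer ones, with medians of 27.5 to 40.3 kb against 16.9 to 19.3 kb.

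The gene lists that follow are set against all genes tested, of which 16.7% were higher and 24.6% lower. The genes known for zygotic activation and the 2-cell state were mostly higher in the 2-cell clones: 15 of the 20 measured rose and 2 fell, with a median difference of 5.46 against -0.01 over all genes. The second quantile normalisation gave 16 higher and none lower. Dppa4 and its partner Dppa2, DNA-binding proteins that act upstream of 2-cell genes in mouse stem cells, both rose. Dppa4 had 0.98, 0.53, 0.34, 0.63 and 0.53 in the 2-cell clones, against -6.73, -6.63, -6.73, -7.04 and -6.87 in the 1-cell clones, and Dppa2 had 0.22, 0.45, 0.22, 0.39 and -0.38 in the 2-cell clones, against -4.30, -3.97, -3.52, -3.36 and -3.29 in the 1-cell clones. The stages did not overlap for either, and the differences were 7.40 ± 0.14 (chromosome 16, 48283735 to 48294292) and 3.87 ± 0.17. Zfp352, a zinc finger gene used as a 2-cell marker, had 6.84, 5.58, 6.63, 8.82 and 6.27 in the 2-cell clones, against -0.21, -0.13, -0.20, -0.19 and -0.06 in the 1-cell clones. The 1-cell clones were all near the probe set's median and the 2-cell clones far above it, a difference of 6.99 ± 0.70 (chromosome 4, 90218820 to 90225687; adjusted p 3.39e-09). Ubtfl1, an embryo-specific relative of the nucleolar factor Ubtf, rose by 9.21 ± 0.37, Tdpoz1, a speckle-type protein gene of the 2-cell embryo, by 7.28 ± 0.54, and the deubiquitinase gene Usp17la by 7.87 ± 1.05.

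Hspa1a, an inducible heat shock protein whose RNA is among the first made by the mouse embryo, had 2.96, 3.40, 5.23, 3.01 and 5.02 in the 2-cell clones, against 0.59, -1.53, 2.02, -0.13 and 0.61 in the 1-cell clones, a difference of 3.61 ± 0.67 (adjusted p 5.64e-05). Eif1a, a translation initiation factor transcribed early in mouse embryos, had -2.12, -2.78, -3.09, -3.81 and -3.30 in the 2-cell clones, against -7.83, -7.49, -7.82, -8.04 and -7.85 in the 1-cell clones, a difference of 4.78 ± 0.26. Both separated the stages. Tcstv1, a 2-cell gene of unknown biochemical role, did not pass: it had 2.18, 3.71, 3.45, 3.84 and 3.57 in the 2-cell clones, against 4.62, 4.04, 3.95, 2.69 and 3.20 in the 1-cell clones, with overlap and a difference of -0.35 ± 0.29 (adjusted p 0.42), and without 1-cell clones 4 and 5 it passed at -0.86 (adjusted p 0.0147). After a second quantile normalisation it passed in the opposite direction, at 1.09 (adjusted p 0.000768), so its direction is not settled. The falls were Klf17, a Klf-family transcription factor, at -1.80 ± 0.38, and the arginase gene Arg2, named after its values were seen, at -3.11 ± 0.72, which became -0.81 (adjusted p 0.723) after a second quantile normalisation. Klf17 lost its call after a second quantile normalisation (-0.54, adjusted p 0.494) and with the hybridisation controls as a covariate (-1.16, adjusted p 0.0798), and its second probe set differed by -0.78 (adjusted p 0.158). The probe sets for the Zscan4 family carry several symbols, so no value is given for it.

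The genes that build ribosomes and RNA polymerases mostly rose. Of the 43 nucleolar ribosome biogenesis factors 33 rose and 5 fell, with a median of 2.54. The falls numbered 1 after a second quantile normalisation, 2 with the hybridisation covariate and 3 without 1-cell clone 3 or 2-cell clone 4. The median was smaller after a second quantile normalisation, at 1.3 with 25 higher. It was 1.45 with the mean of all probe sets (35 higher) and 0.98 with second probe sets (17 of 33 higher). Tsr1, needed to mature the small ribosomal subunit, had 1.28, 1.04, 1.05, 1.06 and 1.23 in the 2-cell clones, against -4.41, -4.37, -4.56, -3.71 and -3.88 in the 1-cell clones, a difference of 5.32 ± 0.18 without overlap (chromosome 11, 74898080 to 74909340). Nop56, a core protein of the particles that methylate ribosomal RNA, had 0.00, -0.12, -0.18, -0.30 and -0.41 in the 2-cell clones, against -3.15, -3.55, -3.90, -3.86 and -3.45 in the 1-cell clones, a difference of 3.38 ± 0.12 without overlap. Nhp2, a pseudouridylation-particle protein, rose by 5.17 ± 0.19, and the nucleolar protein Mybbp1a by 4.91 ± 0.19. Ncl, which encodes the abundant nucleolar protein nucleolin, rose by 3.19 ± 0.36 (adjusted p 3.09e-08), but after a second quantile normalisation the difference was 1.06 (adjusted p 0.109). Nolc1, a nucleolar phosphoprotein, fell by this probe set, at -2.87 ± 0.58, while its second probe set differed by 3.97, so its direction is not settled.

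Among the 26 measured subunits of RNA polymerases I, II and III, 19 rose and 4 fell, with a median of 2.23, and 17 and 2 after a second quantile normalisation. The median was 1.36 after that step and 1.39 with the mean of all probe sets (19 higher, 2 lower). Through second probe sets it was 0.32, with 6 of 14 higher and 1 lower. Polr3g, the polymerase III subunit of pluripotent cells, had -0.03, 0.35, -0.48, -0.21 and -0.87 in the 2-cell clones, against -6.78, -6.98, -6.78, -6.63 and -6.79 in the 1-cell clones. All 2-cell clones lay near the probe set's median and all 1-cell clones far below it, a difference of 6.54 ± 0.28 (chromosome 13, 81673837 to 81711013; adjusted p 1.44e-16). Polr1c, shared by polymerases I and III, had 0.00, 0.38, -0.02, -0.07 and 0.69 in the 2-cell clones, against -5.71, -6.07, -6.06, -4.53 and -5.70 in the 1-cell clones, a difference of 5.81 ± 0.32. The polymerase I subunit Polr1e rose by 5.82 ± 0.21 and Polr2b, the second-largest subunit of polymerase II, by 2.29 ± 0.14. The general transcription and elongation factors were less uniform, with 16 of 37 higher, 5 lower and a median of 0.35. Ccnt1, the cyclin of the elongation kinase P-TEFb, rose by 7.26 ± 0.39, with 0.31 (adjusted p 0.62) from its second probe set, and Supt5, an elongation factor subunit, by 2.26 ± 0.13. Gtf2e1, of the initiation factor TFIIE, rose by 6.46 ± 0.33 through the chosen probe set but differed by -0.03 through its second one. Ell, an elongation factor, fell, at -2.90 ± 0.20, as did the initiation factor Gtf2b, named after its values were seen, at -4.16 ± 0.30.

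Of the 44 cytosolic ribosomal proteins 38 rose and 1 fell, with a median of 3.82. Their mean was -1.55 to -1.17 in the 5 2-cell clones, against -5.39 to -4.62 in the 5 1-cell clones. Rpsa, a small-subunit protein, had -0.99, -1.49, -1.20, -1.40 and -1.41 in the 2-cell clones, against -8.43, -8.95, -8.24, -8.04 and -7.28 in the 1-cell clones. The stages did not overlap and the difference was 6.89 ± 0.20 (chromosome 9, 120127766 to 120132369; adjusted p 6.18e-20), though a second probe set differed by 0.02. Rpl37a, a large-subunit protein, had -0.72, -0.83, -0.81, -0.66 and -0.40 in the 2-cell clones, against -7.49, -7.40, -7.37, -7.57 and -6.87 in the 1-cell clones, a difference of 6.65 ± 0.10 that its second probe set shared at 6.86. Rps19 rose by 6.09 ± 0.18 and Rps2 by 3.35 ± 0.10. The exception was Rpl22, singled out after its values were seen, which fell at -4.55 ± 0.41 by the chosen probe set and differed by 3.91 by its second one. The translation factors were higher in 22 of 38 cases and lower in 7, with a median of 1.19. Eif5, which triggers start codon recognition, had 0.74, 0.74, 0.72, 0.63 and 0.99 in the 2-cell clones, against -3.72, -3.39, -2.77, -4.31 and -3.92 in the 1-cell clones, a difference of 4.39 ± 0.24 without overlap. Eif3f, of the large initiation complex, rose by 2.70 ± 0.13. Eif4e, the cap-binding factor, named after its values were seen, fell at -4.37 ± 0.65, while its second probe set differed by 2.12. After a second quantile normalisation 11 translation factors were higher and 10 lower, with a median of 0.23, and 32 ribosomal proteins were higher and 2 lower.

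**Figure D3:**
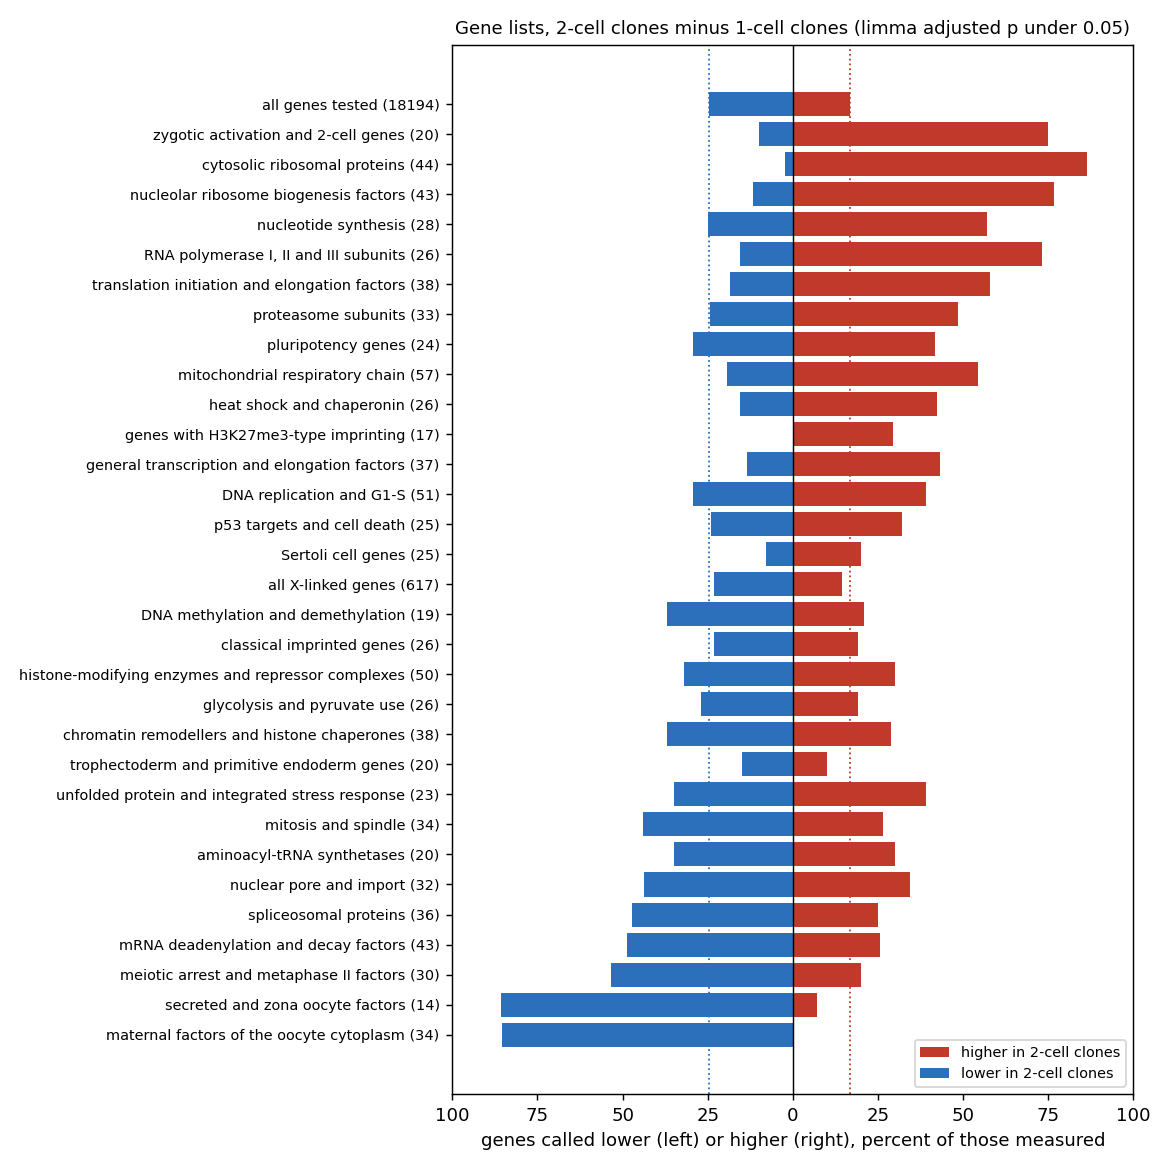
Percent of the measured members of each gene list that were higher (right, red) or lower (left, blue) in 2-cell than in 1-cell clones, ordered by median difference; dotted lines mark all 18194 genes at 16.7% higher and 24.6% lower. Zygotic and 2-cell genes, ribosomal proteins and nucleolar factors lie at one end, maternal cytoplasmic factors and secreted and zona oocyte factors at the other.

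The 12 largest falls among genes with separated values span -7.68 to -6.89. Gspt2, a translation termination factor, had -2.22, -2.23, -0.25, -1.27 and -2.24 in the 2-cell clones, against 6.26, 5.94, 6.62, 5.55 and 5.80 in the 1-cell clones. The highest 2-cell clone lay far under the lowest 1-cell clone, and the difference was -7.68 ± 0.58 (chromosome X, 94636069 to 94638562; adjusted p 1.61e-11), but its second probe set differed by -0.66 (adjusted p 0.26). Nlrp9b, one of the oocyte-expressed Nlrp genes, had 0.00, 0.01, 0.64, -0.03 and -0.00 in the 2-cell clones, against 7.78, 7.19, 7.35, 7.63 and 7.63 in the 1-cell clones, with 4 of the 2-cell clones between -0.03 and 0.01 and a difference of -7.39 ± 0.11 (chromosome 7, 19991393 to 20062942). Asz1, a germ cell protein of the piRNA pathway, had 0.09, -2.09, -2.15, -1.70 and -2.08 in the 2-cell clones, against 6.0, 6.06, 6.22, 5.16 and 4.93 in the 1-cell clones, a difference of -7.26 ± 0.30. Rgs2, a regulator of G protein signalling in the egg, had 2.28, 4.68, 5.88, 4.52 and 4.92 in the 2-cell clones, against 11.70, 11.64, 11.69, 11.55 and 11.36 in the 1-cell clones. Its 2-cell values were widely spread but all below the 1-cell values, which lay within a narrow band, and the difference was -7.13 ± 0.53 (chromosome 1, 143999338 to 144004149; adjusted p 9.73e-12), with -7.47 from a second probe set.

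Gja4, the gap junction protein through which the oocyte is coupled to its follicle cells, had -0.40, -0.02, 2.21, -0.01 and -0.13 in the 2-cell clones, against 7.24, 6.42, 7.62, 7.56 and 7.65 in the 1-cell clones, a difference of -6.97 ± 0.33. The semaphorin receptor gene Plxna4 differed by -7.37 ± 0.29, with -0.46 (adjusted p 0.115) from its second probe set, Gmds, which starts GDP-fucose synthesis, by -7.20 ± 0.35, and Glrx, which encodes glutaredoxin, by -6.99 ± 0.55. The interferon-induced family member Ifit1bl1 differed by -7.18 ± 0.35, the zinc finger gene Zfp383 by -7.11 ± 0.54, the adhesion gene Ninj2 by -6.92 ± 0.26 and the kelch-like gene Klhl32 by -6.89 ± 0.21. The second probe set of Zfp383 differed by -0.06 (adjusted p 0.246) and that of Klhl32 by -0.12 (adjusted p 0.322), so these falls rest on 1 probe set each. In 2-cell clone 3 several of these were less far down than in its 4 companions. Nlrp9b had 0.64, Ifit1bl1 2.93, Gja4 2.21 and Klhl32 1.25 in that embryo. Without that embryo all 12 still passed.

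The maternal factors of the oocyte cytoplasm were mostly lower: 29 of 34 fell and none rose (limma), with a median of -3.90, and 0 were higher at an unadjusted p under 0.05 as well. Their mean was 1.96 to 2.83 in the 2-cell clones, highest in clone 3, against 5.61 to 6.0 in the 1-cell clones. H1f8, the linker histone of the oocyte, had 1.57, -0.01, 4.85, 0.01 and -0.01 in the 2-cell clones, against 7.85, 7.77, 7.35, 7.55 and 6.79 in the 1-cell clones. The 2-cell clones were spread but all below the 1-cell clones, a difference of -6.18 ± 0.55 (chromosome 6, 115944931 to 115950242; adjusted p 3.16e-10). Padi6 and Nlrp5, proteins of the subcortical maternal complex that the cleaving embryo needs, differed by -4.84 ± 0.34 and -3.80 ± 0.46. Nlrp9a differed by -4.64 ± 0.17, the oocyte protein gene Oog4 by -4.93 ± 0.20, and Lhx8, a transcription factor of the growing oocyte, by -4.18 ± 0.21. Dppa3, a maternal protein that protects DNA methylation after fertilisation, did not pass: it had 0.00, 0.07, -0.32, -0.17 and -0.12 in the 2-cell clones, against -0.07, -0.06, 0.08, -0.58 and -0.72 in the 1-cell clones, with overlapping stages and a difference of 0.16 ± 0.18. After a second quantile normalisation 21 of the 34 were lower and 2 higher, with a median of -1.67.

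Secreted and zona factors of the oocyte fell in 12 of 14 cases, with a median of -2.93. Gdf9, a growth factor by which the oocyte instructs its cumulus cells, had 1.51, 2.46, 3.54, 3.03 and 2.63 in the 2-cell clones, against 7.26, 7.03, 6.95, 6.23 and 6.52 in the 1-cell clones, a difference of -4.16 ± 0.38 without overlap (chromosome 11, 53430774 to 53437904; adjusted p 5.78e-10). Fgf8, a signalling factor made by the oocyte, differed by -5.56 ± 0.21 and the oocyte-secreted protein gene Oosp3 by -4.94 ± 0.35. Zp3, the zona protein that binds sperm, had 1.38, 1.67, 1.29, 0.77 and 1.41 in the 2-cell clones, against 2.94, 2.27, 3.34, 2.97 and 3.07 in the 1-cell clones, a difference of -1.61 ± 0.27 that ended after a second quantile normalisation (-0.18, adjusted p 0.989). The single rise, Ovgp1, an oviduct glycoprotein gene named after its values were seen, was 2.08 ± 0.70, and it did not pass without 1-cell clones 1 to 3 (1.99, adjusted p 0.141) or without 2-cell clone 1, 3 or 5 (1.87, 1.72 and 1.87). With the second quantile normalisation 5 of these genes were lower.

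The factors that hold the egg in metaphase II fell in 16 of 30 cases and rose in 6, with a median of -0.98. After a second quantile normalisation 6 were higher and 10 lower. Mos, the kinase that maintains this arrest, had -0.02, -0.01, 5.47, -0.01 and 0.02 in the 2-cell clones, against 4.98, 4.63, 5.19, 4.93 and 6.20 in the 1-cell clones. In 4 of the 2-cell clones it lay between -0.02 and 0.02, while clone 3 lay within the range of the 1-cell clones, so that the groups overlapped, with a difference of -4.10 ± 0.64 (adjusted p 5.33e-06). Fbxo43, the inhibitor of the anaphase-promoting complex in the egg, had -0.02, -0.01, -0.04, 0.05 and -0.01 in the 2-cell clones, against 3.73, 3.51, 3.30, 4.32 and 3.97 in the 1-cell clones, a difference of -3.77 ± 0.10 without overlap. Pde3a, the phosphodiesterase whose activity lets meiosis resume, differed by -5.09 ± 0.17, the checkpoint protein gene Bub3 by -4.84 ± 0.31, with -0.29 (adjusted p 0.398) from its second probe set, and Sgo2a, a protector of cohesion named after its values were seen, by -5.58 ± 0.49. Cdc25c, an activating phosphatase of the mitotic kinase, went the other way, with 2.73, 3.17, 2.33, 2.89 and 3.04 in the 2-cell clones, against -3.65, -3.97, -6.02, -6.55 and -6.13 in the 1-cell clones and a difference of 8.10 ± 0.39 (chromosome 18, 34732993 to 34751564).

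The factors of deadenylation and decay fell in 21 of 43 cases and rose in 11, with a median of -0.55. Btg4, an adaptor that brings the deadenylase to maternal RNA, had 4.41, 4.63, 4.55, 4.03 and 4.29 in the 2-cell clones, against 7.80, 7.83, 7.87, 7.82 and 7.73 in the 1-cell clones. The 5 values at each stage lay close together and did not overlap, and the difference was -3.43 ± 0.35 (adjusted p 6.05e-09), reduced to -1.05 (adjusted p 0.101) by a second quantile normalisation. Dcp1a and Edc4, of the decapping complex, differed by -5.72 ± 0.23 and -3.27 ± 0.16. The poly(A)-binding protein genes moved apart: Pabpc1l, the oocyte form, had 0.46, 0.48, 0.18, 0.49 and 1.84 in the 2-cell clones, against 5.12, 5.45, 5.35, 5.88 and 7.14 in the 1-cell clones, a difference of -5.10 ± 0.27, while Pabpc1, the somatic form, had 0.18, 0.24, 0.20, 0.15 and 0.12 in the 2-cell clones, against -6.14, -6.97, -6.47, -6.42 and -5.91 in the 1-cell clones, a difference of 6.56 ± 0.16. Neither overlapped. With the second quantile normalisation 11 members were higher and 10 lower.

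Spliceosomal proteins were lower more often than higher in number, with 17 of 36 lower, 9 higher and a median of -0.51. Cdc5l, of the catalytic spliceosome core, had -0.68, -0.83, -1.44, -0.69 and -1.07 in the 2-cell clones, against -8.44, -8.43, -7.29, -9.32 and -8.18 in the 1-cell clones, a difference of 7.39 ± 0.26 without overlap (chromosome 17, 45391887 to 45433707), shared by a second probe set at 5.93. Snrpb, a Sm ring protein, rose by 5.27 ± 0.21, and Snrpc, of the U1 particle, by 5.86 ± 0.22, which a second probe set at 0.08 did not show. Prpf6, of the tri-snRNP, had -0.43, -0.92, -0.99, -1.73 and -1.19 in the 2-cell clones, against 2.10, 1.94, 1.82, 2.38 and 2.56 in the 1-cell clones, a difference of -3.21 ± 0.20, and Sf3a1, of the U2 particle and named after its values were seen, fell at -4.61 ± 0.53. The nuclear pore and import genes were higher in 11 of 32 cases and lower in 14, and in 9 and 9 after a second quantile normalisation. Kpna1, an importin alpha, had 0.91, 0.18, 0.42, 0.62 and 0.95 in the 2-cell clones, against -7.81, -7.82, -8.25, -8.26 and -8.27 in the 1-cell clones, a difference of 8.70 ± 0.23, whereas Kpna7, the importin alpha of the oocyte, had 1.32, 2.89, 3.28, 4.12 and 3.67 in the 2-cell clones, against 9.26, 9.17, 9.66, 8.90 and 8.53 in the 1-cell clones, a difference of -6.04 ± 0.30. The 2 importins thus moved in opposite directions without overlap. The pore protein gene Nup133 rose by 5.28 ± 0.25, and the export receptor Xpo1 by 3.57 ± 0.15, with -0.01 from its second probe set.

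Heat shock proteins and chaperonin subunits were higher in 11 of 26 cases and lower in 4, with a median of 0.55. The counts were 8 and 6 after a second quantile normalisation, with a median of 0.0. Through second probe sets 5 of 18 were higher and 6 lower, with a median of 0.06. The hybridisation covariate gave 13 and 3, with a median of 0.87. Cct6a, a subunit of the cytosolic chaperonin, had -0.39, -0.26, -0.35, -1.07 and -0.83 in the 2-cell clones, against -9.35, -9.86, -8.74, -10.55 and -10.24 in the 1-cell clones, a difference of 9.17 ± 0.22 (chromosome 5, 129787356 to 129846443), and its ring partner Tcp1 rose by 3.32 ± 0.15. Proteasome subunits were higher in 16 of 33 cases and lower in 8, with a median of 1.07, but in 6 and 9 cases after a second quantile normalisation, with a median of -0.15. Psmd14, the deubiquitinase of the lid, rose by 5.33 ± 0.24, and Psmb1, a core subunit, by 5.21 ± 0.27, with 0.20 from its second probe set. Aminoacyl-tRNA synthetases were split, with 6 of 20 higher and 7 lower, and 2 and 6 after a second quantile normalisation.

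Genes of nucleotide synthesis were higher in 16 of 28 cases and lower in 7, with a median of 2.41. Prps1, which makes the ribose donor of all nucleotides, had 0.49, -0.02, 0.17, 0.06 and 0.26 in the 2-cell clones, against -7.61, -8.87, -8.69, -9.15 and -9.16 in the 1-cell clones. The 2-cell clones lay near the probe set's median and the 1-cell clones far below it, a difference of 8.89 ± 0.20 (chromosome X, 140456603 to 140476140; adjusted p 2.6e-22). Nme2, a nucleoside diphosphate kinase, had -0.59, -0.51, -0.73, -0.56 and -0.82 in the 2-cell clones, against -9.38, -10.21, -9.28, -8.48 and -7.25 in the 1-cell clones, a difference of 8.28 ± 0.30, and Shmt1, of the folate cycle, rose by 7.49 ± 0.31. The respiratory chain was higher in 31 of 57 cases and lower in 11, with a median of 0.92, but higher in 15 and lower in 15 after a second quantile normalisation. Atp5g1, a membrane subunit of the ATP synthase, rose by 5.05 ± 0.22 (0.06 from a second probe set), and Ndufa2, of complex I, by 3.78 ± 0.18, while Ndufa10, of the same complex, fell at -4.34 ± 0.24, with -0.34 from its second probe set. Glycolysis and pyruvate use had 5 of 26 genes higher and 7 lower, so 46.2% were called, close to the 41.2% of all genes. After a second quantile normalisation 5 were higher and 4 lower. The monocarboxylate carrier gene Slc16a1 rose by 6.33 ± 0.49, with 0.05 from its second probe set, and the glucose transporter gene Slc2a3 by 6.03 ± 0.52. Pdha1, of pyruvate dehydrogenase, rose by 3.59 ± 0.33 through the chosen probe set, but its second probe set differed by -2.48.

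Cell cycle genes had no common direction. Mitosis and spindle genes were higher in 9 of 34 cases and lower in 15. The counts were 6 and 8 after a second quantile normalisation and 7 and 8 with the hybridisation covariate. Anln, the cleavage furrow protein anillin, had 1.45, 1.71, -1.04, 1.94 and -1.25 in the 2-cell clones, against 6.26, 5.22, 5.39, 5.04 and 4.72 in the 1-cell clones, a difference of -4.77 ± 0.59 without overlap. Tpx2, a spindle assembly factor, had -1.59, -2.79, -4.44, -2.68 and -4.72 in the 2-cell clones, against 1.29, 1.71, 1.10, 1.08 and 0.51 in the 1-cell clones, a difference of -4.38 ± 0.51, with 0.71 from its second probe set, and Ttk, a checkpoint kinase, differed by -3.05 ± 0.27, with 0.01 from its second. Ncapd2, of condensin, rose by 4.76 ± 0.49. Replication and G1-S genes were higher in 20 of 51 cases and lower in 15 (68.6% called, against 41.2% of all genes), or 9 lower with the hybridisation covariate. Ccne1, the cyclin that drives entry into S phase, had 2.49, 2.36, 2.22, 2.19 and 2.60 in the 2-cell clones, against -3.16, -3.70, -3.66, -5.25 and -4.16 in the 1-cell clones, a difference of 6.35 ± 0.41 (chromosome 7, 38097984 to 38107490; adjusted p 6.33e-13). Prim1, the primase subunit, rose by 4.76 ± 0.22, and Rrm2, of ribonucleotide reductase, by 5.24 ± 0.31, with 0.22 from its second probe set. Orc5, of the origin recognition complex, fell at -3.30 ± 0.22.

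Of 19 DNA methylation and demethylation genes 4 were higher, 7 lower and 8 not called, with a median of -0.01, and 2 were higher and 5 lower after a second quantile normalisation. Dnmt1, the maintenance methyltransferase, had 0.00, 1.03, 0.75, -0.29 and 0.27 in the 2-cell clones, against 4.54, 3.56, 4.85, 4.25 and 4.98 in the 1-cell clones, a difference of -4.08 ± 0.37 without overlap (chromosome 9, 20907206 to 20959888; adjusted p 5.54e-10). Uhrf1, which guides Dnmt1 to hemimethylated DNA, had -2.02, -0.89, 0.40, -0.49 and -0.56 in the 2-cell clones, against 4.37, 4.34, 4.35, 5.50 and 5.38 in the 1-cell clones, a difference of -5.50 ± 0.45. Zfp57, a zinc finger protein that keeps methylation at imprinted regions, had -0.00, -0.00, 0.03, -0.01 and -0.00 in the 2-cell clones, against 5.30, 6.10, 5.51, 6.59 and 6.82 in the 1-cell clones. All 2-cell clones lay between -0.01 and 0.03, and the difference was -6.06 ± 0.18 (chromosome 17, 37001163 to 37010729; adjusted p 8.39e-20). The growth arrest genes Gadd45b and Gadd45a, which have been linked to demethylation, rose by 6.46 ± 0.51 and 4.59 ± 0.38.

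Trim28, the corepressor that works with Zfp57, had -0.68, -0.68, -0.67, -0.74 and -0.78 in the 2-cell clones, against -0.50, -0.44, -0.82, -1.47 and -1.21 in the 1-cell clones. The stages overlapped and the difference of 0.18 ± 0.18 did not pass (adjusted p 0.551), though it did, at 0.63 to 1.08, with the mean of its probe sets, its second probe set, the hybridisation covariate or without 1-cell clones 1 to 3. Histone-modifying enzymes were split, with 15 of 50 higher and 16 lower, against 13 and 8 after a second quantile normalisation and 16 and 10 with the hybridisation covariate. The H3K4 demethylase gene Kdm5b had 2.32, 2.19, 1.92, 1.79 and 2.04 in the 2-cell clones, against -5.84, -5.91, -5.28, -7.31 and -6.97 in the 1-cell clones, a difference of 8.31 ± 0.30 without overlap (chromosome 1, 134560178 to 134632878), and its relative Kdm5a rose by 6.80 ± 0.34. The deacetylase gene Hdac1, whose product acts in the early mouse embryo, had -0.01, -0.42, -0.83, -1.31 and 0.00 in the 2-cell clones, against -7.08, -7.29, -7.08, -6.42 and -6.22 in the 1-cell clones, a difference of 6.30 ± 0.26, and the H3K9 demethylase gene Kdm4c rose by 4.94 ± 0.27. Among 38 remodellers and chaperones 11 were higher and 14 lower, with a median of -0.20. The second quantile normalisation gave 5 and 7 with a median of 0.24, and leaving out 1-cell clones 4 and 5 gave 7 and 13. The median also turned positive without 1-cell clone 2, at 0.10, without 1-cell clones 1 to 3, at 0.24, and with the hybridisation covariate, at 0.08. Smarcc1, of the BAF complex, rose by 4.80 ± 0.31 and the chromatin protein gene Hmgb3 by 3.03 ± 0.31, while Ep400, a remodelling ATPase, fell at -2.25 ± 0.19.

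Of 26 classical imprinted genes 5 were higher, 6 lower and 15 not called, so 42.3% were called, close to the 41.2% of all genes. The second quantile normalisation gave 5 higher and 3 lower. Impact, expressed from the paternal allele in mice, had 2.29, 1.70, 0.15, 0.10 and 0.42 in the 2-cell clones, against -5.26, -4.98, -4.98, -4.90 and -4.53 in the 1-cell clones, a difference of 5.86 ± 0.43 without overlap (adjusted p 7.33e-12), with 0.54 from its second probe set. The growth factor receptor gene Igf2r, expressed from the maternal allele in later tissues, rose by 4.60 ± 0.38 and Mcts2 by 4.18 ± 0.45, while Gnas fell at -4.15 ± 0.47, with 0.12 from its second probe set. Of 17 genes imprinted through H3K27me3, a maternal histone mark, 5 were higher and none was lower (limma), with 0 lower at an unadjusted p under 0.05. The called share was 29.4%, against 41.2% of all genes. Etv6, Jade1, Gab1 and Tle3 rose by 4.62 ± 0.37, 4.76 ± 0.41, 4.17 ± 0.43 and 4.20 ± 0.63. Xist, the RNA that silences an X chromosome, had -0.27, -4.89, -1.60, -0.85 and -1.66 in the 2-cell clones, against -5.70, -4.63, -5.69, -4.63 and -4.65 in the 1-cell clones. In 2-cell clone 2 it lay within the 1-cell range and in the other 4 above it, a difference of 3.21 ± 0.73 (adjusted p 0.000609) that became 0.91 (adjusted p 0.643) after a second quantile normalisation. Its second probe set differed by 1.06 (adjusted p 0.321). Of the 617 X-linked genes 89 were higher and 142 lower in the 2-cell clones, 37.4% in all against 41.2% of all genes, and 58 and 77 after a second quantile normalisation.

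Pluripotency genes were higher in 10 of 24 cases and lower in 7 (70.8% called, against 41.2% of all genes), with a median of 0.96. After a second quantile normalisation 5 were higher and 7 lower, with a median of 0.11, and through second probe sets, held by 14 of them, 2 were higher and 2 lower. Zfp42, known as Rex1, had -1.66, -1.48, -0.64, 0.08 and 0.00 in the 2-cell clones, against -6.39, -6.38, -5.65, -6.36 and -6.39 in the 1-cell clones, a difference of 5.49 ± 0.38 without overlap, and Dppa5a had -0.38, -1.09, -0.30, -1.19 and -0.61 in the 2-cell clones, against -5.94, -5.95, -4.53, -5.37 and -5.56 in the 1-cell clones, a difference of 4.76 ± 0.26. Fgf4, a growth factor of the inner cell mass named after its values were seen, rose by 6.62 ± 1.05. Klf5 rose by 3.70 ± 0.30, which became 1.04 (adjusted p 0.0526) after a second quantile normalisation and was 0.04 through its second probe set. The core factor Pou5f1 had -2.68, -2.94, -3.02, -1.22 and -1.88 in the 2-cell clones, against -1.0, -1.93, -0.97, 0.13 and 0.44 in the 1-cell clones, overlapping and lower at -1.68 ± 0.34 (adjusted p 0.000179). Sox2, named after its values were seen, fell at -2.33 ± 0.39, and so did Lin28b, an RNA-binding protein gene, at -2.37 ± 0.31. Nanog did not pass, at 0.30 ± 0.47 (adjusted p 0.801), with overlapping values, but after a second quantile normalisation it was lower, at -1.80 (adjusted p 0.0293). Of 20 genes of trophectoderm and primitive endoderm 2 were higher and 3 lower, or 5 lower without 1-cell clone 4: Tead4, a trophectoderm factor, rose by 5.05 ± 0.32, and Gata3 fell at -4.08 ± 0.35.

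Stress and cell death genes moved both ways. Of 25 p53 targets and death genes 8 were higher and 6 lower (56.0% called, against 41.2% of all genes), and 7 and 3 after a second quantile normalisation. The survival factor gene Mcl1 had 0.00, 0.26, 0.35, -0.57 and 0.20 in the 2-cell clones, against -9.24, -6.19, -7.95, -8.60 and -8.23 in the 1-cell clones, a difference of 8.09 ± 0.33 (chromosome 3, 95656944 to 95663179), and the stress-induced sestrin genes Sesn2 and Sesn1 rose by 7.75 ± 0.47 and 5.85 ± 0.29. Casp8, an initiator caspase, had 0.07, -0.01, 1.46, -0.02 and 0.14 in the 2-cell clones, against 4.88, 5.34, 5.95, 5.42 and 5.28 in the 1-cell clones, a difference of -5.04 ± 0.23 without overlap. Of 23 genes of the unfolded protein and integrated stress responses 9 were higher and 8 lower, against 6 and 6 after a second quantile normalisation and 6 and 8 without 1-cell clones 1 to 3. Dnajb9, a chaperone of the endoplasmic reticulum, rose by 7.94 ± 0.41 and Trib3, a target of the stress factor Atf4, by 7.31 ± 0.61, while the sensor Atf6 fell at -4.91 ± 0.50 and the inhibitor of eIF2 kinases Dnajc3 at -5.15 ± 0.59.

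Genes of the donor cell type gave no common direction. Of 25 Sertoli cell genes 5 were higher, 2 lower and 18 not called, a smaller called share than the 41.2% of all genes. The falls numbered 1 with the hybridisation covariate, with the 1-cell and 2-cell arrays alone or with the SD filter. The mean of the list was 0.14 to 0.44 in the 2-cell clones against -0.68 to -0.39 in the 1-cell clones. The median difference was 0.02, so this shift in the mean was not shared by most of the list. The 5 rises were led by Ctsl, a lysosomal protease that early embryos also express, at 9.08 ± 0.40, with 0.80 from its second probe set, the transcription factor gene Gata1 at 5.30 ± 0.49 and the clusterin gene Clu at 4.07 ± 0.76. Mro fell at -2.45 ± 0.22. Sox9, the factor that defines the lineage, differed by 0.01 ± 0.51. Of 14 markers of other testis somatic cells 3 were lower (5 without 1-cell clones 1 to 3) and none higher (limma), with 0 higher at an unadjusted p under 0.05. Of 13 cumulus cell markers 1 was higher and none lower, with 0 lower at an unadjusted p under 0.05. The called shares were 21.4% and 7.7%, against 41.2% of all genes. The cumulus marker that rose was Amhr2, the receptor of anti-Müllerian hormone. It had 2.42, 2.08, 1.37, 1.60 and 1.88 in the 2-cell clones, against -7.95, -7.95, -7.95, -7.99 and -7.95 in the 1-cell clones, a difference of 9.82 ± 0.31 without overlap, and it also rose in IVF embryos at 9.16 ± 0.40. The other 12 cumulus markers did not pass. Of 19 markers of sperm and late germ cells 1 was higher and 2 lower (15.8% called). The part of such cells in the results was not tested.

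The same transition in IVF embryos, tested in a separate fit, gave 6532 genes past the threshold (35.9%), 3121 higher (17.2%) and 3411 lower (18.7%). Of the 3036 genes that rose in clones 2309 (76.1%) also rose in IVF embryos, which is 74.0% of the IVF rises. Of the 4469 that fell in clones 2836 (63.5%) also fell in IVF embryos, which is 83.1% of the IVF falls. Genes called in opposite directions numbered 139, of which 30 rose in clones and fell in IVF embryos and 109 did the reverse. Across all genes the 2 sets of differences had a Pearson correlation of 0.866, a description over genes of embryos hybridised in the same series. The clone and IVF changes differed in the test of the difference itself for 2038 genes (11.2%), 721 with the more positive change in clones (3.96%) and 1317 with the more negative (7.24%). This count fell to 520 after a second quantile normalisation, to 859 with the hybridisation controls as a covariate and to 1292 with the 1-cell and 2-cell arrays alone.

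**Figure D4:**
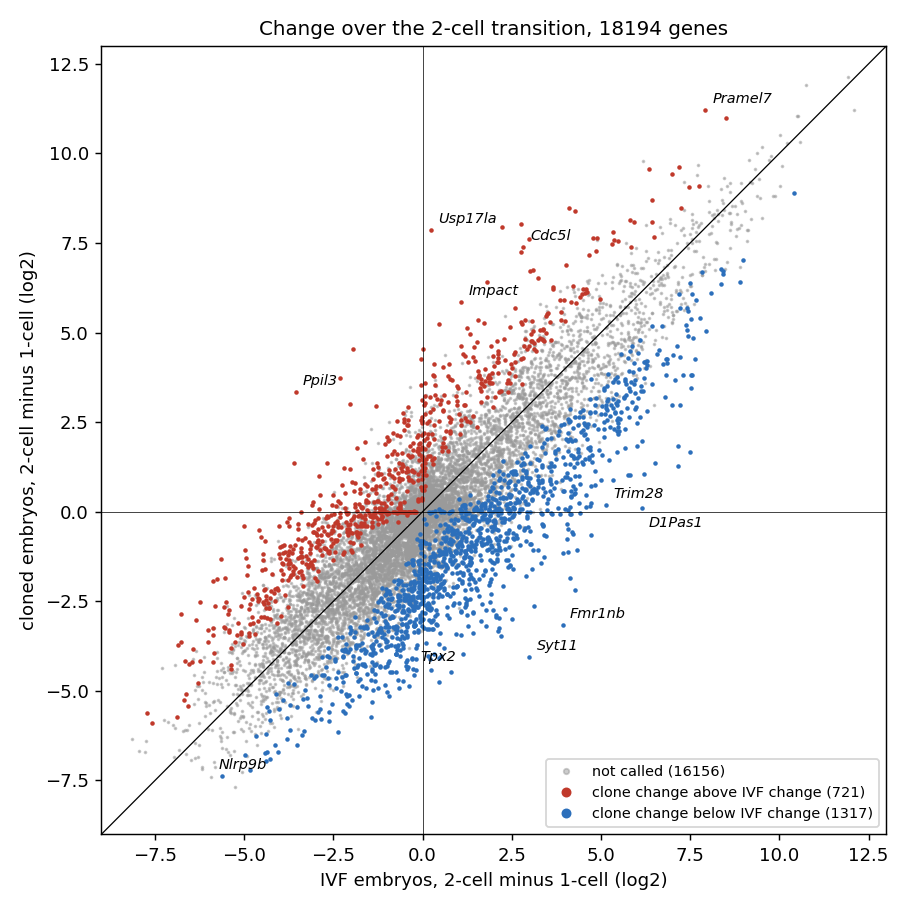
Log2 difference between 2-cell and 1-cell embryos of each gene, IVF on the horizontal axis and clones on the vertical axis, for 18194 genes. The 721 genes with the more positive change in clones are red, the 1317 with the more negative are blue and the other 16156 grey, and most genes follow the diagonal.

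Between clones and IVF embryos, 17 of the named genes kept a called difference under the second quantile normalisation, with the hybridisation covariate, with the 1-cell and 2-cell arrays alone and in each of 16 fits that left out 1 embryo. They were chosen with these values known. Syt11, a synaptotagmin of vesicle traffic, had -0.01, 0.04, -0.04, -0.02 and -0.01 in the 2-cell clones, against 4.13, 3.19, 3.84, 4.38 and 4.77 in the 1-cell clones, and 4.24, 4.45 and 4.69 in the 2-cell IVF embryos, against 2.75, 1.67 and -0.01 in the 1-cell IVF embryos. It thus went down in clones and up in IVF embryos, with a difference between the transitions of -7.06 ± 0.59 (adjusted p 1.97e-11). D1Pas1, a DEAD-box RNA helicase gene of the testis, had -0.10, -0.17, -0.21, -0.07 and 0.21 in the 2-cell clones, against -0.20, -0.17, -0.19, -0.13 and -0.10 in the 1-cell clones, and 5.38, 5.85 and 6.79 in the 2-cell IVF embryos, against -0.18, -0.16 and -0.06 in the 1-cell IVF embryos. All clones lay between -0.21 and 0.21 at both stages, while every 2-cell IVF embryo was far above every 1-cell IVF embryo, a difference between the transitions of -6.05 ± 0.46 (adjusted p 1.58e-12). A second D1Pas1 probe set gave -0.98, not called. Fmr1nb, an X-linked gene, had -3.33, -3.32, -3.34, -3.61 and -3.42 in the 2-cell clones, against 0.00, 0.26, -0.80, -1.07 and 0.44 in the 1-cell clones, and 2.67, 1.34 and 2.26 in the 2-cell IVF embryos, against -1.71, -2.53 and -1.27 in the 1-cell IVF embryos, so the 2 kinds of embryo moved in opposite directions, with a difference of -7.09 ± 1.04 (adjusted p 5.03e-06).

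Trim28 had 1.20, 1.0 and 1.09 in the 2-cell IVF embryos, against -3.49, -4.58 and -4.09 in the 1-cell IVF embryos, whereas the clones, given above, lay between the IVF 1-cell and 2-cell values at both stages. The difference between the transitions was -4.97 ± 0.28 (adjusted p 1.79e-16). Nsa2, of large ribosomal subunit assembly, had -1.77, -1.72, -0.82, -1.91 and -1.34 in the 2-cell clones, against 0.54, 0.26, 0.40, 0.34 and 0.13 in the 1-cell clones, and 2.08, 2.21 and 2.28 in the 2-cell IVF embryos, against -1.53, -2.75 and -1.54 in the 1-cell IVF embryos, with a difference between the transitions of -5.97 ± 0.45, but its second probe set gave 0.26. C1qtnf12, a secreted adipokine gene, had a difference between the transitions of -6.46 ± 0.99, with overlapping clone values, and the clone fall alone did not pass with the mean of its probe sets (-0.60) or its second probe set (-0.36). Fbxo43 fell in clones, at -3.77 ± 0.10, and differed by -0.72 ± 0.61 in IVF embryos, a difference of -3.05 ± 0.49 (adjusted p 2.12e-05).

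On the positive side Ndrg1, a stress-responsive gene, had 2.24, 3.07, 2.76, 3.15 and 3.10 in the 2-cell clones, against -4.44, -5.55, -4.75, -5.42 and -5.20 in the 1-cell clones, and -2.69, -3.98 and -1.06 in the 2-cell IVF embryos, against -5.55, -4.21 and -4.63 in the 1-cell IVF embryos. The 2-cell clones were above every IVF embryo, and the difference between the transitions was 5.72 ± 1.08 (adjusted p 0.000239). Impact had -4.93, -4.91 and -0.92 in the 2-cell IVF embryos, against -4.99, -4.52 and -4.52 in the 1-cell IVF embryos, and the difference between the transitions was 4.77 ± 0.95 (adjusted p 0.000458), with 0.46 from its second probe set. Ppil3, a spliceosomal peptidyl-prolyl isomerase, had 0.31, 0.13, 1.06, -0.28 and -0.69 in the 2-cell clones, against -3.00, -3.96, -1.76, -1.53 and -5.87 in the 1-cell clones, and -6.26, -4.97 and -2.04 in the 2-cell IVF embryos, against -0.93, -0.17 and -1.49 in the 1-cell IVF embryos, a difference between the transitions of 6.89 ± 0.94, with 0.04 from its second probe set. For Cdc5l the IVF embryos had -0.36, -0.40 and 0.17 in the 2-cell IVF embryos, against -3.43, -2.97 and -2.67 in the 1-cell IVF embryos. Its 1-cell clones lay below the 1-cell IVF embryos, and the difference between the transitions was 4.56 ± 0.38 (adjusted p 1.88e-11). Pramel7, Tfrc, Dppa4, Nup133, Psmd14 and Prim1 rose in both kinds of embryo, by more in clones, with differences between the transitions of 3.29 ± 0.37, 2.48 ± 0.48, 1.55 ± 0.24, 2.52 ± 0.43, 2.27 ± 0.37 and 2.66 ± 0.31, and the 1.31 from a second Pramel7 probe set was not called.

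Usp17la had 6.37, 8.19, 6.70, 9.41 and 6.38 in the 2-cell clones, against -0.46, -0.45, -0.45, -0.46 and -0.47 in the 1-cell clones, and 7.40, 7.13 and 8.07 in the 2-cell IVF embryos, against 7.56, 6.26 and 8.07 in the 1-cell IVF embryos. The IVF embryos were as high at the 1-cell stage as at the 2-cell stage, the 1-cell clones lay between -0.47 and -0.45, and the difference between the transitions was 7.64 ± 1.66 (adjusted p 0.00119). It did not pass after a second quantile normalisation (4.91) or with the hybridisation covariate (7.04). By list, the difference was called for 7 of 20 zygotic and 2-cell genes (5 more positive in clones, 2 more negative), 17 of 43 nucleolar factors (6 and 11), 9 of 28 genes of nucleotide synthesis (1 and 8), 9 of 50 histone-modifying enzymes (all 9 more negative, with 3 more positive at an unadjusted p under 0.05) and 2 of 34 maternal cytoplasmic factors (both more negative), against 3.96% and 7.24% of all genes. Of the 14 secreted and zona oocyte factors 5 were more negative and none more positive (1 at an unadjusted p under 0.05). General transcription factors had 1 more positive and 8 more negative of 37, remodellers and chaperones 1 and 8 of 38, and stress response genes 2 and 6 of 23. These lists are a selection, and their counts were not repeated under the alternatives.

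**Figure D5:**
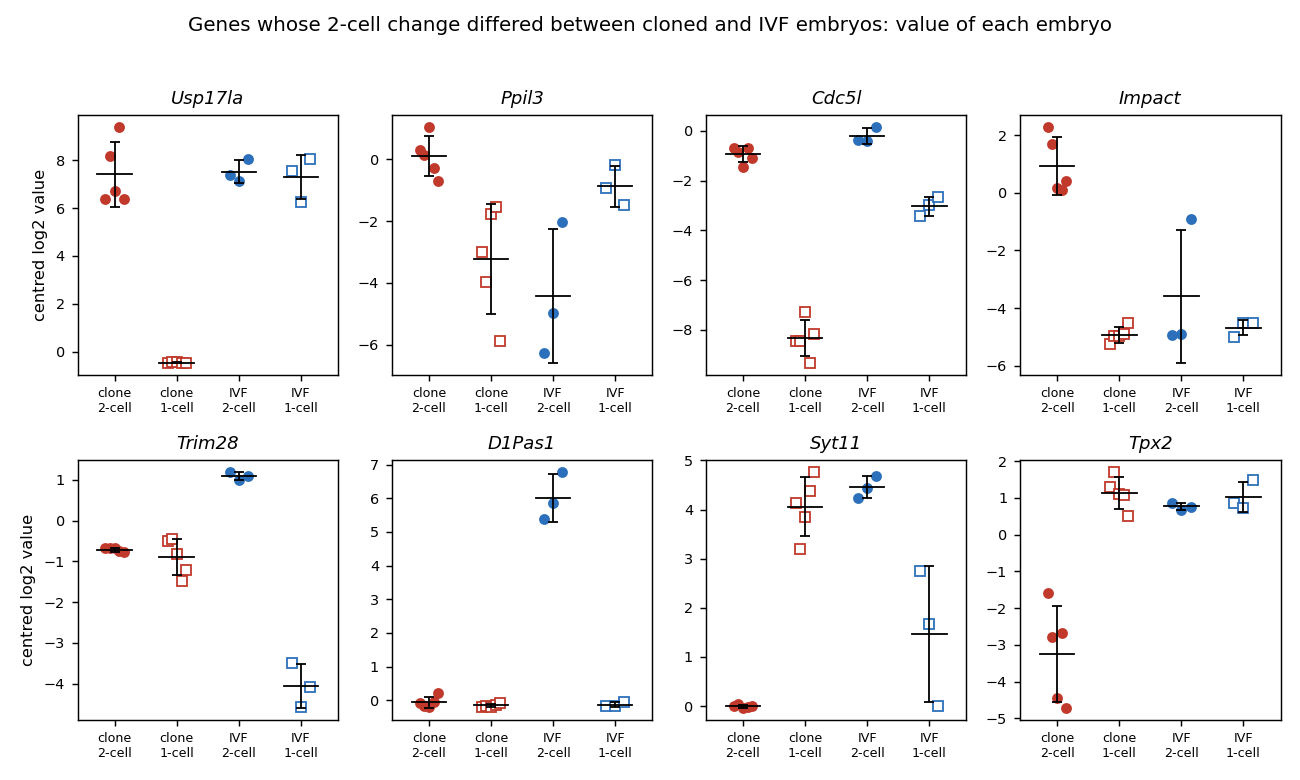
Log2 values of 8 genes in single embryos, in the order 2-cell clones, 1-cell clones, 2-cell IVF embryos and 1-cell IVF embryos (n = 5, 5, 3 and 3); the line is the mean and the bar the SD. D1Pas1 is high only in the 3 2-cell IVF embryos among those plotted, Usp17la is low only in the 5 1-cell clones, and Syt11 is low in all 2-cell clones and high in all 2-cell IVF embryos.

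Placed between the oocyte and the 4-cell stage, the genes followed different courses. The comparisons of 1-cell clones with MII oocytes (4407 genes, 24.2%) and of 4-cell with 2-cell clones (5434 genes, 29.9%) share arrays with the transition studied here, so group means are set side by side. Mos averaged 11.81, 5.19, 1.09 and 0.03 in MII oocytes and 1-, 2- and 4-cell clones. Its 2-cell mean was raised by clone 3, at 5.47, which stood apart from its companions, so that mean is not a step shared by the 2-cell clones. Btg4 averaged 8.01, 7.81, 4.38 and -0.11 in MII oocytes and 1-, 2- and 4-cell clones, with the fall spread over the 2-cell and 4-cell stages. Nlrp9b averaged 5.60, 7.52, 0.12 and 0.01 in MII oocytes and 1-, 2- and 4-cell clones. The means of 2 of the 2-cell genes were highest at the 2-cell stage: Zfp352 averaged -0.12, -0.16, 6.83 and 1.22 in MII oocytes and 1-, 2- and 4-cell clones, and Usp17la averaged -0.44, -0.46, 7.41 and 1.79 in MII oocytes and 1-, 2- and 4-cell clones. Hspa1a averaged 0.81, 0.31, 3.92 and 0.24 in MII oocytes and 1-, 2- and 4-cell clones, likewise highest at the 2-cell stage of the 4. Dppa4 averaged -8.36, -6.80, 0.60 and 0.56 in MII oocytes and 1-, 2- and 4-cell clones, so that it stayed at the level reached by the 2-cell clones. Dppa2 averaged -8.63, -3.69, 0.18 and -0.12 in MII oocytes and 1-, 2- and 4-cell clones, with more of its rise before the 2-cell stage. Xist averaged -4.69, -5.06, -1.85 and 2.06 in MII oocytes and 1-, 2- and 4-cell clones. Plxna4 averaged 0.24, 8.18, 0.82 and 0.01 in MII oocytes and 1-, 2- and 4-cell clones, and among these 4 groups it was high only in the 1-cell clones through this probe set.

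By list, 10 of 20 zygotic and 2-cell genes were lower and 3 higher in 4-cell than in 2-cell clones, with a median of -1.79, and 24 of 34 maternal cytoplasmic factors were lower and 1 higher, with a median of -3.31. All 38 ribosomal proteins called in that step were higher, with a median of 1.25 over the 44. Between 1-cell clones and MII oocytes, 10 maternal cytoplasmic factors were higher and 3 lower (median 0.28) and 4 zygotic and 2-cell genes were higher and 1 lower (median -0.03). The nucleolar factors were higher in 18 and lower in 6 of 43 cases in that earlier step (median 0.67), against 33 and 5 between the 2-cell and 1-cell clones (median 2.54).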

How the data were processed

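Total RNA of single oocytes and embryos was amplified over 2 rounds, labelled with biotin and hybridised to Affymetrix mouse arrays, per the labels' protocols. The authors deposited log2 values made with RMA, per the submitters' processing notes, with no version given, for 45101 probe sets. The log base is not stated and was read from the values: 1 probe set spans 13.8 units, more than the 11.1 of a 16-bit scanner in natural logarithms. In 94.3% of probe sets exactly 1 array is at 0 and 24 to 26 of 51 lie below it, so the deposited values are centred per probe set.

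Of the probe sets 64 were controls, 34958 had 1 gene symbol, 932 several and 9147 none in the platform annotation. The probe set most variable across the 51 arrays (by SD) was kept for each of 18194 genes, of which 18033 had a position in GRCm38.p6 (RefSeq). No filter or further normalisation was applied. The clone transition was fitted on the 30 clone arrays, the IVF transition on the 21 oocyte and IVF arrays, and the difference between transitions and the comparison with MII oocytes on all 51, with limma 3.58.1 (lmFit, eBayes) in R 4.3.3, Benjamini-Hochberg adjustment over 18194 genes and a threshold of 0.05. Control signals were compared by an exact permutation test (scipy 1.17.1). Tested on simulated data for the clone comparison over 18194 genes, the fit recovered 50 of 50 and 50 of 50 genes changed by -4 and 4 on the log2 scale, and 45 of 50 and 46 of 50 changed by -2 and 2, with 12 false calls.

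Genes were named by a rule: the 12 largest rises and falls with separated values, the 5 largest positive and negative differences between transitions, up to 4 members of each list with the smallest adjusted p, and a set of genes followed in every case, with provisional symbols (a clone or locus number) and Y-linked genes left out of the largest changes. Genes named outside it are marked as such. The genes, lists and rule were chosen with earlier results of these data known. Alternatives were other normalisations, an SD filter, other probe sets, array control signals as covariates, the replicate block, another variance model, fewer arrays, and each embryo left out.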

Additional observations from a re-analysis of the deposited data

Results flagged for a closer look

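Of 332 groups of 5 cloned embryos (166 named genes at 2 stages), 33 held 1 embryo far from the other 4, where chance alone flags about 1 in 20. In 17 of them the whole group spanned less than 1 log2 unit. Among 2-cell clones, embryo 3 stood apart most often among the genes that fell: Mos was at 5.47, Ifit1bl1 at 2.93, Gja4 at 2.21, Casp8 at 1.46, Klhl32 at 1.25, Nlrp9b at 0.64 and Glrx at -0.85, each above the other 4. For Zfp622 the same embryo was low, at 1.32. Embryo 1 stood apart for Oosp3 at 4.47, Tcstv1 at 2.18, Clu at 0.74 and Asz1 at 0.09. Embryo 2 stood apart for Gtf2e1 at -0.42, Rpl22 at -0.69 and Klf5 at -3.51. Embryo 4 did so for Pde3a at 0.80, and embryo 5 for Pabpc1l at 1.84 and Dppa2 at -0.38.

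Among 1-cell clones, embryo 4 stood apart for Ep400 at 2.21, Polr1c at -4.53, Slc2a3 at -7.96, Amhr2 at -7.99 and Pdxk at -10.62. Embryo 5 stood apart for Pde3a at 4.28, Ovgp1 at 0.07, Rpl37a at -6.87 and Slc34a2 at -7.62. Embryo 3 did so for Zfp383 at 7.34 and Zfp42 at -5.65, embryo 2 for Smarcc1 at -3.84 and Gtf2e1 at -6.73, and embryo 1 for Pdha1 at -5.92 and Crxos at -11.37. The outlying 2-cell embryo for Mos lay within the range of the 1-cell clones.

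For 54 of the named genes the change in clones differed from the change in IVF embryos (limma, adjusted p under 0.05), 24 more positive and 30 more negative in clones. The 17 that kept this call in the quantile, covariate, stage-only and single-embryo alternatives were, on the positive side, Ppil3 at 6.89, Ndrg1 at 5.72, Impact at 4.77, Cdc5l at 4.56, Pramel7 at 3.29, Prim1 at 2.66, Nup133 at 2.52, Tfrc at 2.48, Psmd14 at 2.27 and Dppa4 at 1.55. On the negative side they were Fmr1nb at -7.09, Syt11 at -7.06, C1qtnf12 at -6.46, D1Pas1 at -6.05, Nsa2 at -5.97, Trim28 at -4.97 and Fbxo43 at -3.05. Gja4, at -2.59, kept its call after a second quantile normalisation and with the hybridisation covariate but lost it with the 1-cell and 2-cell arrays alone.

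The other positive differences lost their call after a second quantile normalisation or with the hybridisation covariate. They were Usp17la at 7.64, Rbm25 at 6.50, Id2 at 6.05, Gab1 at 2.90, Etv6 at 2.70, Cdc25c at 2.16, Dppa2 at 1.75, Pdha1 at 1.71, Snrpc at 1.70, Polr1e at 1.54, Smarcc1 at 1.43, Nop56 at 1.18, Dcp1a at 1.17 and Xpo1 at 0.77. The other negative differences lost their call in 1 or both of the same alternatives. They were Tpx2 at -4.13, Nolc1 at -4.12, Dnajc3 at -3.38, Atf6 at -3.32, Sgo2a at -2.96, Klhl32 at -2.62, Ncl at -2.44, Rpl22 at -2.40, Gmds at -2.37, Sf3a1 at -2.36, Lin28b at -2.23, Gdf9 at -2.21, Ccne1 at -2.0, Klf5 at -1.96, Ell at -1.81, Tcstv1 at -1.76, Plxna4 at -1.74, Ndufa10 at -1.64, Zp3 at -1.56, Prps1 at -1.51, Fgf8 at -1.27 and Rps19 at -1.11. Leaving out 1 embryo ended the call of 14 of these 54 genes, and 2 of them moved by over 1.5 times: without 2-cell IVF embryo 1 the Plxna4 difference was -0.75 (adjusted p 0.359) and the Fgf8 difference -0.69 (adjusted p 0.284).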

How the results depend on the processing

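A second quantile normalisation of the centred values forced the arrays onto 1 distribution, although their spread differed by stage. It can therefore also reduce real differences between stages, and how far it did so was not tested. It left 4734 genes called between 2-cell and 1-cell clones (2099 higher, 2635 lower). For the difference between the clone and IVF transitions it left 520 (241 more positive, 279 more negative). For that difference the hybridisation covariate left 859 genes (387 and 472), and the 1-cell and 2-cell arrays alone 1292 (378 and 914). The share of higher calls was 40.5% between the clone stages and 35.4% for the difference, against 46.3% and 45.1% for the difference under the quantile and covariate alternatives. Leaving out 1 embryo gave 7185 to 7426 genes between the clone stages (2900 to 3037 higher, 4226 to 4412 lower) and 1814 to 2090 for the difference (581 to 770 and 1111 to 1368). With the replicate block 7510 genes passed between the clone stages and 2057 for the difference. Same-numbered embryos did not deviate together (residual correlations -0.026 to 0.047), so the numbers do not pair them. Of 166 named clone differences, the same side of the threshold and the same sign were kept by 166 under median centring, the SD filter, the replicate block and the trend model, 156 under the quantile alternative, 160 with the mean of all probe sets, and 70 of 103 with a second probe set. Of the 54 named differences between transitions, 23 kept them under the quantile alternative, 23 with the hybridisation covariate, 37 with the mean of probe sets and 13 of 40 with a second probe set.

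Directions turned mainly between probe sets of 1 gene, and the cause was not tested. Between the clone stages the second probe set gave -0.00 for Ctsc, -0.03 for Gtf2e1, -0.01 for Xpo1, 0.01 for Ttk, 0.71 for Tpx2, 0.12 for Gnas, -2.48 for Pdha1, 1.10 for Nsa2, 2.12 for Eif4e, 3.91 for Rpl22 and 3.97 for Nolc1, and the mean of probe sets gave 0.99 for Rpl22 and 1.31 for Nolc1. The quantile alternative gave 1.09 for Tcstv1 and -1.80 for Nanog. For the difference between transitions the second probe set gave -0.91 for Nop56, 0.68 for Ncl, 0.85 for Nolc1, -0.52 for Xpo1, -0.19 for Cdc25c, -1.13 for Etv6, -1.24 for Pdha1, -1.16 for Rbm25 and 0.26 for Nsa2. The mean of probe sets gave 0.42 for Ncl, -0.03 for Xpo1 and -0.45 for Smarcc1, and the hybridisation covariate 0.30 for Ccne1. Centred values hold no level, so signal over background was not judged, and the number of embryos limits the precision.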
